A study of Mus musculus with 20 samples.

Results

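Clone1 is a line of immortalised mouse kidney epithelial cells labelled Fh1 deletion, and it is described here against the Fh1_fl_fl cells, which carry the floxed name and are labelled Fh1 wt. Its members are the 5 libraries titled clone1 and the 5 titled Fh1_fl_fl, chosen by title, so 10 of the 20 libraries of the series enter the main comparison. The other 10 libraries served to ask what is particular to clone1: 5 of clone19, a further line labelled Fh1 deletion, and 5 of Rec, labelled Fh1 wt re-expressed. All groups are of strain C57BL/6J and were grown in DMEM with 10% FBS and 0.05 mg/mL uridine, and RNA was sequenced from all of them. Clone1 is 1 clone, so whatever distinguishes it from clone19 cannot be told apart from differences between clones, and the labels give neither the parent clone of Rec nor the deleted part of the gene. Separate cultures within a group are not stated either, so the spread behind each p-value is that between libraries and may be technical.

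Fumarate hydratase, the product of Fh1, turns fumarate into malate in the TCA cycle. In cells without it fumarate builds up, modifies cysteines of KEAP1 and so releases NRF2, the transcription factor of antioxidant genes, and it inhibits dioxygenases that use 2-oxoglutarate, among them the prolyl hydroxylases that mark HIF for degradation. Loss of FH in kidney cells is known for a shift from epithelial towards mesenchymal gene expression. This is background and not a result of these libraries.

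The 10 libraries held 6681589 to 18972176 gene counts each, and 12671 of 39179 genes had enough counts to be tested. Levels are given as CPM, counts scaled to library size and composition, as mean ± SD over 5 libraries unless all 5 values are listed, in the order of replicates 1 to 5. Clone1 replicate 1 stood apart from its group. It was the far highest of the 5 clone1 libraries in 269 genes and the far lowest in 495, together 6.03% of tested genes against 0.481 to 1.51% for the other clone1 libraries. The genes in which it was far lowest had a median exon length of 9659 bases, against 4427 bases over all tested genes. Counts are therefore also given without it. In bulk RNA, fewer cells of a type and less RNA per cell cannot be told apart. Keratins, markers of epithelial cells, were counted in both groups, with list sums of 2010 to 2511 CPM in clone1 and 2296 to 2596 in Fh1_fl_fl. Of 7 tested keratins 4 were higher and 3 lower, among them Krt19 at 638 ± 71.1 CPM (higher) and Krt8 at 381 ± 37.1 CPM (lower) in clone1. Fh1 itself was counted at 123, 111, 108, 109 and 112 CPM in clone1 and at 84.6, 96.2, 96.9, 97.1 and 86.5 in Fh1_fl_fl, and a whole-gene count does not measure the deletion. The log2 fold change of Fh1 was 0.29 (SE 0.07, adjusted p = 0.000527), and 0.15 (adjusted p = 0.0645) under library totals.

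Most of the transcriptome differed between clone1 and Fh1_fl_fl. By edgeR's quasi-likelihood test at an adjusted p under 0.05, 9942 genes changed (78.5% of those tested), of which 4813 were higher (38.0%) and 5129 lower (40.5%) in clone1. A change shown to exceed 2-fold was found for 2751 genes (21.7%), 1376 higher and 1375 lower (10.9% each), and 998 exceeded 4-fold (7.88%), 533 higher (4.21%) and 465 lower (3.67%). All 5 clone1 libraries lay beyond all 5 Fh1_fl_fl libraries in 8305 genes (65.5%), above them in 31.3% and below them in 34.3%. Without clone1 replicate 1 the changed genes were 5006 higher and 4940 lower. The balance of directions depends on scaling, since the median log2 fold change of all genes was -0.03 as scaled here, 0.00 with RLE and -0.17 with library totals, and 40.09% of changed genes were higher under library totals against 48.41% as scaled here. A call on a single gene has to be read against these shares.

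To find what is particular to clone1, a gene was called set apart when clone1 differed by more than 2-fold from each of Fh1_fl_fl, clone19 and Rec, always in the same direction, with the largest of the 3 p-values adjusted over all tested genes. This held for 505 genes (3.99% of those tested), 335 higher (2.64%) and 170 lower (1.34%). Without clone1 replicate 1 it held for 343 and 159, and 484 of the 505 were shared. For scale, each comparison alone gave far more genes. Clone1 differed from clone19 by more than 2-fold in 1206 genes (9.52%), 605 higher (4.77%) and 601 lower (4.74%), and at an adjusted p under 0.05 in 64.8%. Against Rec it differed in 77.8% of tested genes (38.1% higher and 39.7% lower), and by more than 2-fold in 2786 (22.0%), 12.9% higher and 9.12% lower. Among the 505 set-apart genes, 324 of those higher and 157 of those lower were protein coding.

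**Figure D1:**
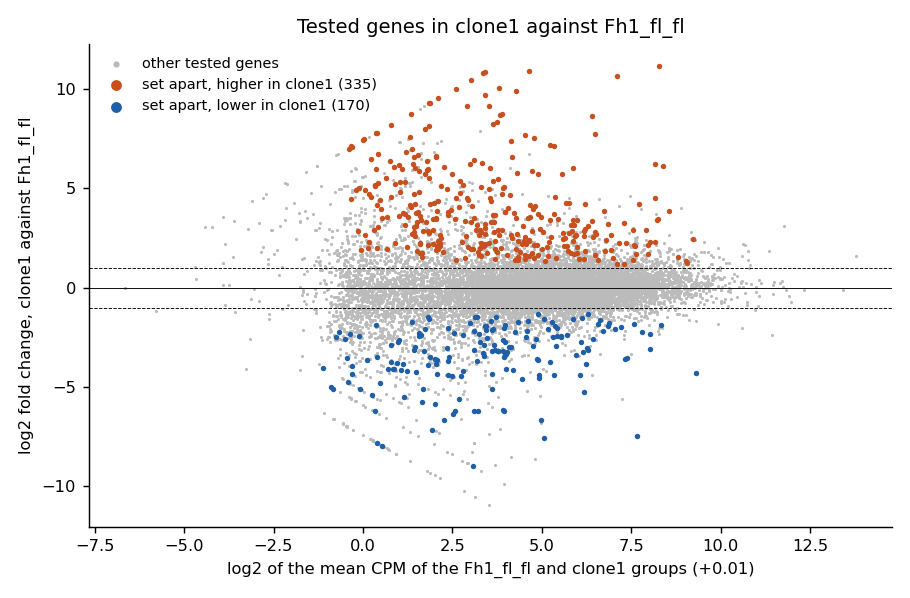
Each point is 1 of the 12671 tested genes, placed by the log2 mean CPM of the 2 groups (x axis) and the log2 fold change of clone1 against Fh1_fl_fl (y axis), with dashed lines at a 2-fold change. The 335 orange and 170 blue genes are those set apart in clone1, and they lie at all expression levels among many grey genes with changes as large.

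Some of the genes set apart upward by the widest margins had almost no counts in the other groups. Such genes entered the test through clone1, so their calls as higher partly follow from the filter. R3hdml had 40, 38.2, 37.2, 35.7 and 42.3 CPM in clone1, while 4 of the 5 Fh1_fl_fl libraries had 0 and replicate 4 had 0.143. The clone1 libraries were higher by a ratio of 1372 (95% counting interval 379 to 11334), by 526 against clone19 (180 to 2551) and at least 767-fold against Rec. No clone1 library came near any other. Faim2, an inhibitor of Fas-induced apoptosis, had 60.5, 57.5, 46.7, 50.8 and 57.9 CPM in clone1 and 0.294, 0.208, 0.162, 0.358 and 0.36 in Fh1_fl_fl. Its log2 fold change was 7.53 (SE 0.19, adjusted p = 9.95e-24), and the smallest difference from any other group was 5.82. The groups were far from overlapping.

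2 mucins were among them. Muc4, a membrane-bound mucin of epithelial surfaces, had 45.4, 78.9, 76, 88.9 and 111 CPM in clone1 and 0.734, 0.415, 0.405, 0.501 and 0.576 in Fh1_fl_fl, with 1.33 ± 0.478 in clone19 and 1.18 ± 0.468 in Rec. Muc5b, a gel-forming secreted mucin, had 15.6, 31.6, 21.3, 28.5 and 43.3 CPM in clone1 against at most 0.144 in any Fh1_fl_fl library. Replicate 1 was the lowest clone1 library for both, but still far above the other groups. The log2 fold changes were 7.15 (SE 0.26, adjusted p = 2.44e-17) for Muc4 and 8.69 (SE 0.45, adjusted p = 8.23e-13) for Muc5b.

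Other genes set apart upward have varied roles. Thrb, the thyroid hormone receptor beta, had 0 counts in all 5 Fh1_fl_fl libraries and 18.1, 22.6, 20.4, 21.8 and 22.9 CPM in clone1, at least 497-fold higher. Clone19 had 1.04 ± 0.357 CPM of Thrb. Tnip3, which binds the NF-kB inhibitor A20, had 14.4 ± 1.28 CPM in clone1, 0.597 ± 0.183 in Fh1_fl_fl, 0.156 ± 0.109 in clone19 and 0 counts in Rec. Ccn5, a secreted matricellular protein, had 13.5 ± 1.56 CPM against 0.32 ± 0.274 in Fh1_fl_fl (log2 fold change 5.17, SE 0.25, adjusted p = 3.96e-17). Ccn5 (GRCm38 chromosome 2, 163820861 to 163833146) and R3hdml (163492318 to 163502612) are near neighbours on the plus strand. The cytokine gene Cxcl15 had 0 counts in Fh1_fl_fl and 8.55 ± 1.7 CPM in clone1, at least 202-fold higher, and was picked after its values were seen.

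Some genes set apart downward, such as Padi1, had similar levels in the other 3 groups, while others differed among those groups. Padi1, which converts peptidyl-arginine to citrulline, had 12.5, 10.1, 10.9, 12.8 and 12.1 CPM in Fh1_fl_fl and 0.298, 0.0968, 0, 0.305 and 0.0867 in clone1. It had 10.7 ± 2 CPM in clone19 and 10.8 ± 1.36 in Rec, and its log2 fold change in clone1 was -6.21 (SE 0.28, adjusted p = 3.71e-18). The clone1 libraries did not overlap those of any other group. Fmnl1, a formin that elongates actin filaments, had 25.9, 26.5, 22.9, 22 and 25.5 CPM in Fh1_fl_fl and 1.99, 3.39, 2.53, 3.66 and 2.17 in clone1. Susd4, a complement regulator, fell from 55.2 ± 1.42 to 4.41 ± 0.594 CPM. The signalling adaptor Traf1 fell from 29.5 ± 2 to 3.16 ± 0.75, the phospholipid flippase gene Atp9a from 17.1 ± 1.73 to 1.25 ± 0.675, and the RNA-binding protein gene Rbms3 from 57.7 ± 2.68 to 2.6 ± 0.777. Apln, which encodes the peptide hormone apelin, fell from 41.8 ± 1.9 to 1.75 ± 0.518 CPM and stood at 11.4 ± 1.77 in clone19. Hs6st2, a heparan sulfate sulfotransferase gene, fell from 28.3 ± 5.3 to 2.49 ± 0.371 in clone1 and had 50.5 ± 3.74 in clone19 and 14.6 to 19.1 in Rec. The log2 fold changes of these 6 genes against Fh1_fl_fl lay between -4.59 (Apln, adjusted p = 5.28e-22) and -3.23 (Traf1, adjusted p = 1.36e-19).

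The long noncoding RNA Neat1, the scaffold of nuclear paraspeckles, lost most of its reads. It had 1313, 857, 1087, 1375 and 1372 CPM in Fh1_fl_fl and 49.7, 75.8, 71.2, 73.5 and 38.1 in clone1. Clone19 had 232 ± 49.2 and Rec 202 ± 13.2, so clone1 was the lowest of 4 groups and Fh1_fl_fl the highest. The log2 fold change was -4.29 (SE 0.21, adjusted p = 6.04e-13). Neat1 lies on chromosome 19, 5824708 to 5845478, minus strand, and its share of all gene counts went from 0.129% to 0.00602%.

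**Figure D2:**
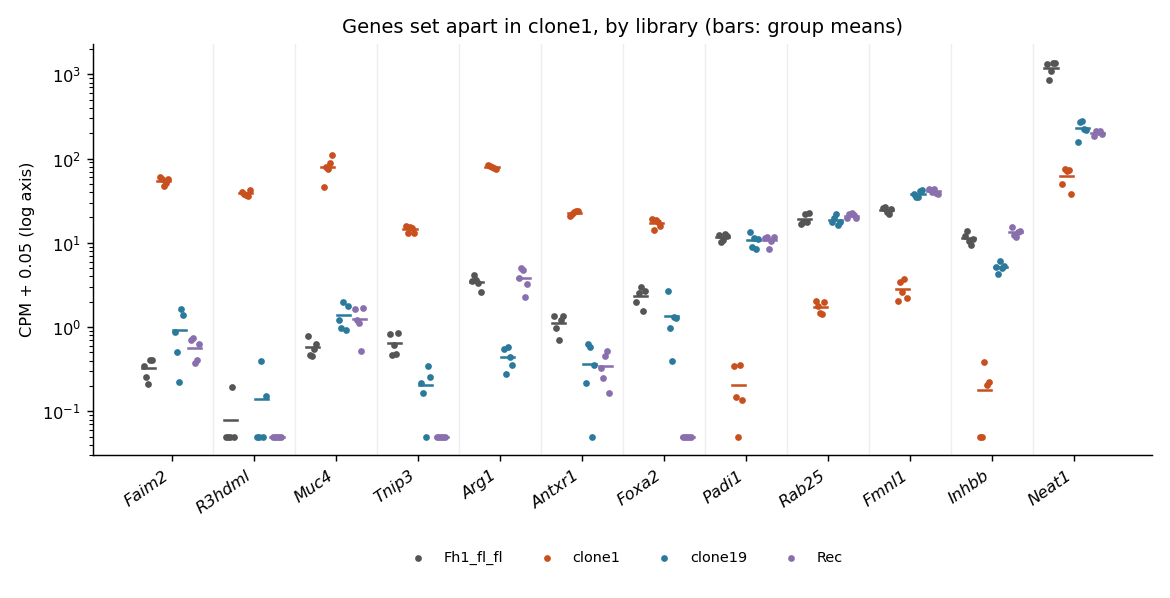
Points are single libraries (5 per group) and bars are group means, on a log axis of CPM + 0.05. From Faim2 to Foxa2 the clone1 points lie above those of the other 3 groups, and from Padi1 to Neat1 they lie below them. Points at the bottom are libraries with 0 counts.

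Detection gave a second view of clone1. A gene was called switched on when every clone1 library had at least 1 CPM and the 5 Fh1_fl_fl libraries held at most 3 counts together, and switched off in the reverse case. By this rule 58 genes were on (0.148% of the 39179 genes) and 86 off (0.220%). Of the 58, 23 also had at least 1 CPM in every clone19 library and 40 had at most 3 counts over the Rec libraries. Of the 86, 27 had at most 3 counts over clone19, 38 over Rec, and 18 over both. Pir, an iron-binding nuclear protein gene, had 25.4, 20.8, 19.2, 15.9 and 21.9 CPM in clone1 and 0 counts in Fh1_fl_fl, at least 493-fold higher. Adam23, a disintegrin-type surface protein gene, was at least 380-fold higher. Tns4, which encodes a focal adhesion tensin, rose by a ratio of 1956 (95% counting interval 350 to 77309) and Rgs17, a regulator of G protein signalling, by 1523 (273 to 60213). Both had only 1 count over the Fh1_fl_fl libraries. Among the genes that were off, Kif26a, a kinesin-like gene, had 23.3, 25.5, 22.6, 18.5 and 24.3 CPM in Fh1_fl_fl and 0 counts in clone1, at least 360-fold lower. Frem2, an extracellular matrix protein of the basement membrane zone, was lower by a ratio of 798 (143 to 31551). Mmp15, a membrane-anchored metalloproteinase gene, was lower by a ratio of 264 (90.1 to 1282). Tspan6, a tetraspanin gene, was lower by a ratio of 273 (93.1 to 1324), while clone19 held it at 40.1 ± 8.08 CPM against 17.2 ± 1.86 in Fh1_fl_fl. Rec had only 0.0982 to 0.572 CPM of Tspan6. Kif26a, Frem2 and Mmp15 were low in both other lines too, so in CPM most of their fall was also seen there. Frem2 was still set apart, lower than clone19 by a ratio of 23.6 (3.77 to 976) and than Rec by 33.9 (5.76 to 1371). That call was lost under DESeq2 (adjusted p = 0.0544) and when some single libraries were left out (0.0505 to 0.0717). Kif26a had 1.04 to 1.33 CPM in clone19 and 0 to 0.28 in Rec. Frem2 had 0.197 to 0.806 and 0.374 to 0.983 CPM, and Mmp15 0 to 0.699 and 0.463 to 0.706, in the same order.

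Epithelial junction genes fell as a group in clone1. Of 50 tested members of the list (55 listed), 39 were lower and 8 higher, where 40.5% and 38.0% of all tested genes were, and the median log2 fold change was -1.34 against -0.03 over all genes. In clone1 against clone19, 36 of the 50 were lower and 5 higher (33.3% and 31.5% of all tested genes), with a median of -0.55. 9 members were set apart downward and 0 upward, where 1.34% and 2.64% of all tested genes were. Rab25, a GTPase of apical recycling endosomes, had 16.6, 17.6, 22.2, 17.5 and 22.4 CPM in Fh1_fl_fl and 1.99, 1.74, 1.43, 1.37 and 1.91 in clone1. Clone19 had 18.6 ± 2.15 and Rec 20.9 ± 1.24, and no clone1 library reached any of them. The log2 fold change was -3.47 against Fh1_fl_fl (SE 0.14, adjusted p = 4.72e-19) and -3.41 against clone19 (SE 0.15, adjusted p = 6.78e-18). The tight junction protein occludin (Ocln) went from 67.6 ± 5.87 to 11.9 ± 1.26 CPM, with 32.8 ± 3.03 in clone19 and 71.4 ± 5.16 in Rec. Desmoplakin (Dsp), which ties desmosomes to keratin filaments, went from 181 ± 10.8 to 47.6 ± 8.35 CPM. Muc1 fell from 62.8 ± 6.19 to 0.544 ± 0.224 CPM but was also at 1.17 ± 0.466 in clone19 and was not set apart.

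Among regulators of epithelial identity, 14 of 21 tested epithelial transcription and splicing factors were lower and 5 higher (66.7% and 23.8%, against 40.5% and 38.0% of all tested genes, median log2 fold change -1.38). Ehf and Elf3, ETS factors of epithelia, fell from 107 ± 9.38 to 12.2 ± 1.2 CPM and from 88.6 ± 3.85 to 11.9 ± 1.71 CPM. Ehf was lower still in clone19, at 3.23 ± 1.39. The pioneer factor gene Foxa2 went the other way, with 1.96, 2.49, 2.92, 1.5 and 2.66 CPM in Fh1_fl_fl, 19.3, 14.2, 18.7, 17.5 and 15.8 in clone1, 1.29 ± 0.848 in clone19 and 0 counts in Rec. Its log2 fold change was 2.91 (SE 0.18, adjusted p = 2.21e-13), and it was the only member of this list set apart upward, while Esrp1 was set apart downward. Of 12 tested EMT transcription factors 7 were higher and 2 lower (58.3% and 16.7%, against the same shares of all genes), and 2 were set apart upward, Zeb1 and Twist2. For scale, 2.64% of all tested genes were set apart upward. Twist2 had 25.1, 21.2, 19.3, 17.8 and 21.1 CPM in clone1 and 6.27, 4.57, 6.72, 5.8 and 6.26 in Fh1_fl_fl. The related gene Snai3 was called set apart downward, at 1.83 ± 0.63 CPM against 5.26 ± 0.673 in Fh1_fl_fl. That call was marginal (adjusted p = 0.0472) and was lost with RLE scaling (0.0709), with a filter at 5 CPM (0.0628), with DESeq2 (0.534) and when most single libraries were left out (0.0513 to 0.408).

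Zeb and Snail factors bind E-boxes of the letters CACCTG. Epcam and Rab25 were chosen to show such letters because their windows hold them. The bases before the RefSeq start of Epcam (set apart, from 439 ± 29.2 to 86.6 ± 13.8 CPM) and Rab25 are printed in GRCm38.p6, 5′ to 3′ on the gene's strand, with CACCTG or its reverse complement in capitals. The Epcam window is chr17:87635729-87635978, plus strand, and the Rab25 window is chr3:88548301-88548529, minus strand, printed as 229 of its 250 bases because those next to the start overlap the annotated gene.
Epcam: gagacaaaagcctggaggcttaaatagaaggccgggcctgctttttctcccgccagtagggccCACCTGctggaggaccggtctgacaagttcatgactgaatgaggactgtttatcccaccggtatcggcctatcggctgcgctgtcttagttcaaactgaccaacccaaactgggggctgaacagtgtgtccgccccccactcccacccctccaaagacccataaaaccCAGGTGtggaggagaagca
Rab25: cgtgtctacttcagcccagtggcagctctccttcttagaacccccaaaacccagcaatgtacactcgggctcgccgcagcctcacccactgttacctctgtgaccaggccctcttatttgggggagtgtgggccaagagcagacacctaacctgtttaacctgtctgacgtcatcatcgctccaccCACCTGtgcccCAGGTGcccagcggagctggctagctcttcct
Both windows hold 2 matches, starting 187 and 19 bases before the RefSeq start of Epcam and 64 and 53 bases before that of Rab25, counted to the start itself and not to the end of the printed letters. Of 5 set-apart epithelial genes with a window 3 held a match: Cldn3 and Dsp held none, and Ocln held 2 in 1 of its windows and none in the other. In the 250 bases before RefSeq starts, counted on both strands, the motif was found in 18.4% of 9693 tested genes with a window, in 42 of 125 genes set apart downward (33.6%) and in 40 of 247 set apart upward (16.2%). A match is a description of letters and not a bound site.

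Glutathione genes were mostly higher in clone1, both against Fh1_fl_fl and against the other groups. Of 29 tested members 23 were higher and 4 lower against Fh1_fl_fl, with a median log2 fold change of 1.36 (38.0% and 40.5% of all genes, median -0.03). Against clone19, 22 were higher and 3 lower with a median of 1.19, so most of the distance from the control was also a distance from the other clone. 13 of the 29 were set apart upward and 0 downward, where 2.64% of all tested genes were set apart upward. Gclc, the catalytic subunit of the first enzyme of glutathione synthesis, had 328, 323, 354, 332 and 319 CPM in clone1, 43.1, 49.4, 43.7, 44.1 and 41.6 in Fh1_fl_fl, 105 ± 9.53 in clone19 and 52.4 ± 3.81 in Rec. The log2 fold change was 2.90 against Fh1_fl_fl (SE 0.07, adjusted p = 1.63e-24) and 1.66 against clone19 (SE 0.07, adjusted p = 8.33e-19). The clone1 libraries did not overlap the others. Gss, the second enzyme of the pathway, had 21.7 ± 3.48 CPM in clone1 and 19 ± 1.54 in Fh1_fl_fl and did not pass the test (0.20, adjusted p = 0.0704), although it did under RLE scaling (0.23, adjusted p = 0.0357), under DESeq2 (0.23, adjusted p = 0.0307) and when 1 of several libraries was left out (adjusted p = 0.0136 without clone1 replicate 4, and up to 0.0424 for the others). Gsr, which regenerates reduced glutathione, fell from 397 ± 8.34 to 222 ± 16.9 CPM, so the members did not all move one way.

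Transferase and exporter genes also rose. Gsta4, a transferase for lipid peroxidation products such as 4-hydroxynonenal, had 22.5, 18.4, 21.5, 23.3 and 22 CPM in Fh1_fl_fl and 483, 365, 387, 378 and 397 in clone1. It rose by 4.22 on the log2 scale (SE 0.11, adjusted p = 1.64e-22) and stood at 80.2 ± 12 CPM in clone19. Gsta3 rose from 2.39 ± 0.565 to 23 ± 4.6 CPM. Gsta genes have close copies, among which reads can be split or lost in counting, so their levels are uncertain. Gclc (77754535 to 77794485) and Gsta4 (78182774 to 78209349) are near neighbours on chromosome 9, in a segment (60 to 80 Mb) whose median was -0.35. Abcc1, which exports glutathione conjugates, rose from 57.4 ± 5.75 to 425 ± 72.4 CPM (2.89, SE 0.11, adjusted p = 2.46e-18). In the thioredoxin list 14 of 25 tested genes were higher and 9 lower (56% and 36%, against 38.0% and 40.5% of all tested genes). Set apart upward were 2 members, where 2.64% of all tested genes were. One was Srxn1, sulfiredoxin, which repairs oxidised peroxiredoxins, with 29.5, 27.6, 30, 35.7 and 26.8 CPM in Fh1_fl_fl and 299, 266, 275, 282 and 298 in clone1. The other was glutaredoxin (Glrx), which rose from 4.86 ± 0.619 to 30.1 ± 2.63 CPM.

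Quinone, carbonyl and conjugation enzymes behaved similarly. Of 43 tested members 30 were higher and 6 lower (69.8% and 14%, against 38.0% and 40.5% of all tested genes, median log2 fold change 1.26). Against clone19, 34 were higher and 6 lower (median 0.97), where 31.5% and 33.3% of all tested genes were. 13 were set apart upward, against 2.64% of all tested genes. Members with almost no counts outside clone1, such as Aldh3a1 (1 count over the Fh1_fl_fl libraries), entered the test through clone1, so such calls as higher partly follow from the filter. The carbonyl reductases Cbr1 and Cbr3 are neighbours on chromosome 16 (93605853 to 93610505 and 93683215 to 93690990). Cbr3 had 4.01, 5.29, 5.35, 5.8 and 4.61 CPM in Fh1_fl_fl and 69.5, 56.9, 58.5, 52.3 and 54.3 in clone1, while clone19, at 2.89 ± 0.468, was below Fh1_fl_fl. Cbr1 rose from 11.5 ± 1.47 to 102 ± 9.87 CPM and was at 27 ± 2.47 in clone19. Ugdh, which makes the UDP-glucuronate used in glucuronidation, rose from 183 ± 9.75 to 1015 ± 46.2 CPM, with 302 ± 28.7 in clone19 and 311 ± 7.22 in Rec. The log2 fold change of clone1 against clone19 was 4.32 for Cbr3 (SE 0.13, adjusted p = 2.08e-21) and 1.75 for Ugdh (SE 0.06, adjusted p = 2.63e-20). Nqo1, a quinone reductase commonly used as an NRF2 readout, had similar levels in both clones, 17.2 ± 1.3 and 13.4 ± 2.2 CPM, and was not set apart. The single member of this list set apart downward was Aldh1a2, which makes retinoic acid. It had 57.3, 67.3, 64.7, 58.9 and 63 CPM in Fh1_fl_fl and 0.298, 0.871, 0.66, 0.61 and 0.607 in clone1 (-6.65, SE 0.14, adjusted p = 2.36e-25), with 6.73 ± 0.157 in clone19.

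**Figure D3:**
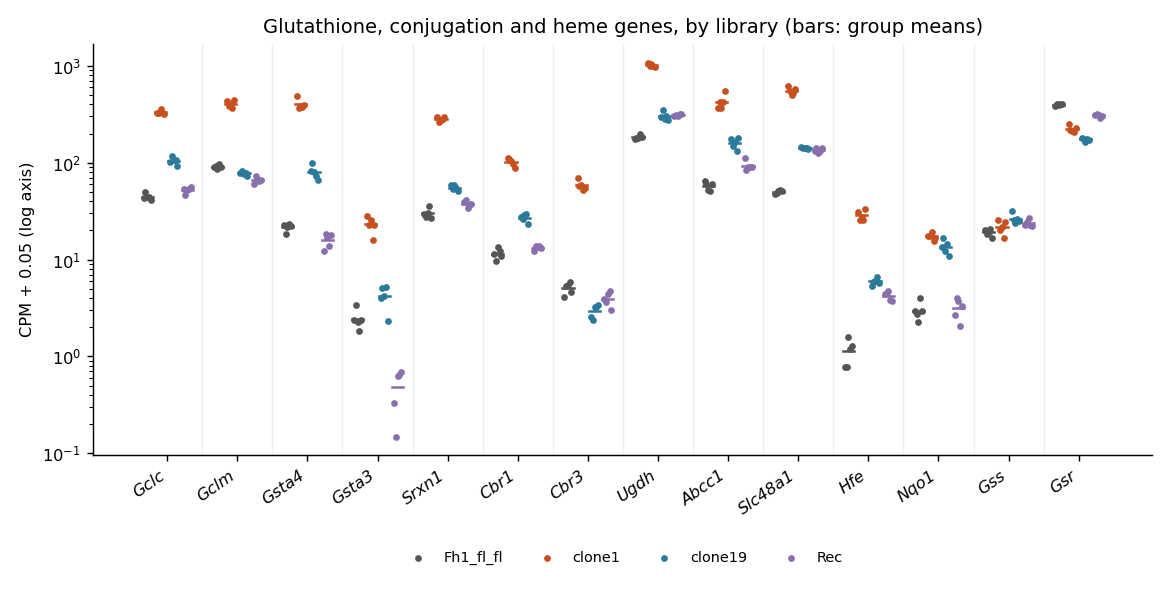
Points are single libraries (5 per group) and bars are group means, on a log axis of CPM + 0.05. From Gclc to Hfe the clone1 points lie above every library of the other 3 groups. Nqo1 is close in clone1 and clone19, Gss overlaps between groups, and Gsr is lower in both clones than in Fh1_fl_fl.

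NRF2 acts with small MAF proteins at antioxidant response elements, whose core is TGACNNNGC. The windows before Gclm, the regulatory partner of Gclc (from 91 ± 3.88 to 405 ± 33 CPM), and Gsta3 are printed because both hold such a core, in capitals, on the gene's strand and 5′ to 3′. They are chr3:122245307-122245556 and chr1:21240335-21240584 of GRCm38.p6, both plus strand, from RefSeq.
Gclm: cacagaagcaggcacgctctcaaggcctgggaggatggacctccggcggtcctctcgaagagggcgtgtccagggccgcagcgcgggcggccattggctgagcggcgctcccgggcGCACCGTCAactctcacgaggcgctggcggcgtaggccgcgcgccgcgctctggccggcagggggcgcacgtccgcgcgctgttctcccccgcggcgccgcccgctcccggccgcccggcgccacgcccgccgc
Gsta3: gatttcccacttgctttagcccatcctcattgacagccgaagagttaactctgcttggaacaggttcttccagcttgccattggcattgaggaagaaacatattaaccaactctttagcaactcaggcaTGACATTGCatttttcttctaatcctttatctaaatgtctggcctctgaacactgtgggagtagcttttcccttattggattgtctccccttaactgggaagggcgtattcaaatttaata
The match starts 134 bases before the start of Gclm, where it is the reverse complement of the core, and 121 bases before that of Gsta3. In windows of 250 bases and on both strands, the core was found in 14.2% of 9693 tested genes, in 30 of 247 genes set apart upward (12.1%), and in 4 of 21 set-apart members of the glutathione and conjugation lists (19%). Windows of this length miss distal elements, so the absence of a match says only that these letters are not in them.

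The NRF2 circuit list, which holds the regulators, had a smaller median than the glutathione and conjugation lists. Of its 12 tested genes 7 were higher and 3 lower (58.3% and 25%, against 38.0% and 40.5% of all tested genes, median 0.32). By over 2-fold 4 were higher and 1 lower, where 10.9% of all tested genes were each way. Nfe2l2, which encodes NRF2, rose from 95.7 ± 2.09 to 258 ± 14.2 CPM, with 148 ± 9.13 in clone19. Bach2, a repressor that competes for related sites, was set apart downward, from 7.46 ± 0.887 to 0.666 ± 0.419 CPM (-3.59, SE 0.28, adjusted p = 1.44e-12). Iron and heme genes were mixed, with 13 of 25 higher and 10 lower (52% and 40%). Set apart upward were 2 members, where 2.64% of all tested genes were. Slc48a1, a heme transporter of endosomes and lysosomes, had 47.5, 48.7, 50.8, 51.6 and 50.5 CPM in Fh1_fl_fl and 622, 554, 497, 518 and 577 in clone1. The hemochromatosis gene Hfe rose from 1.07 ± 0.346 to 28.5 ± 3.52 CPM. Ferritin heavy chain (Fth1) showed the largest gain in the share of reads after mt-Co1, from 0.0774% to 0.605% of all counts. It was at 6233 ± 765 CPM in clone1, 3034 ± 216 in clone19 and 722 ± 22.2 in Fh1_fl_fl, and was not set apart. Of 20 tested genes of NADPH supply 16 were higher and 3 lower (80% and 15%). Cytosolic isocitrate dehydrogenase, Idh1, had 212, 169, 189, 185 and 200 CPM in clone1, 79.5, 78.7, 90.9, 88.5 and 78.5 in Fh1_fl_fl and 48.3 ± 5.05 in clone19, with clone1 above and clone19 below the control libraries. Its set-apart call (smallest log2 difference 1.20) was lost under library totals (1.06, adjusted p = 1) without Fh1_fl_fl replicate 2 (1.18, adjusted p = 0.0617) and with no filter (1.18, adjusted p = 0.057).

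Most listed genes of the HIF response and of glycolysis were higher in clone1. Of 37 tested HIF circuit genes 32 were higher and 5 lower (86.5% and 13.5%, median 1.43). Of 25 glycolysis genes 23 were higher and 2 lower (92% and 8%, median 1.29). Of all tested genes 38.0% were higher and 40.5% lower. Against clone19, 22 of the 37 HIF genes were higher and 8 lower, and 15 of the 25 glycolysis genes were higher and 5 lower, where 31.5% and 33.3% of all tested genes were. The medians against clone19 were 0.30 and 0.56, and 2 members of each list were set apart upward, where 2.64% of all tested genes were. One was muscle phosphofructokinase, Pfkm, at 314 ± 9.99 CPM in clone1, 70.8 ± 5.02 in Fh1_fl_fl, 118 ± 6.64 in clone19 and 72.1 ± 3.88 in Rec. Pdk2, which holds pyruvate dehydrogenase inactive, was set apart at 35.2 ± 2.18 CPM against 11.2 ± 0.617 in Fh1_fl_fl. The integrated stress response list had 30 of 34 genes higher and 3 lower (88.2% and 8.82%, median 1.24, and 0.23 against clone19). Rec showed a similar rise, with a list median of 1.07 against Fh1_fl_fl, and clone1 against Rec gave 0.34. For the HIF and glycolysis lists the medians of Rec against Fh1_fl_fl were -0.35 and 0.06. Slc1a4, a neutral amino acid transporter gene of the stress response list, was set apart at 209 ± 37.8 CPM, with 22.7 ± 4.41 in Fh1_fl_fl and 64.8 ± 7.54 in clone19. The call was lost without clone1 replicate 1 (adjusted p = 0.0535), clone1 replicate 5 (0.0725) or Rec replicate 3 (0.0706), under DESeq2 (0.0659) and with no filter (0.104).

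**Figure D4:**
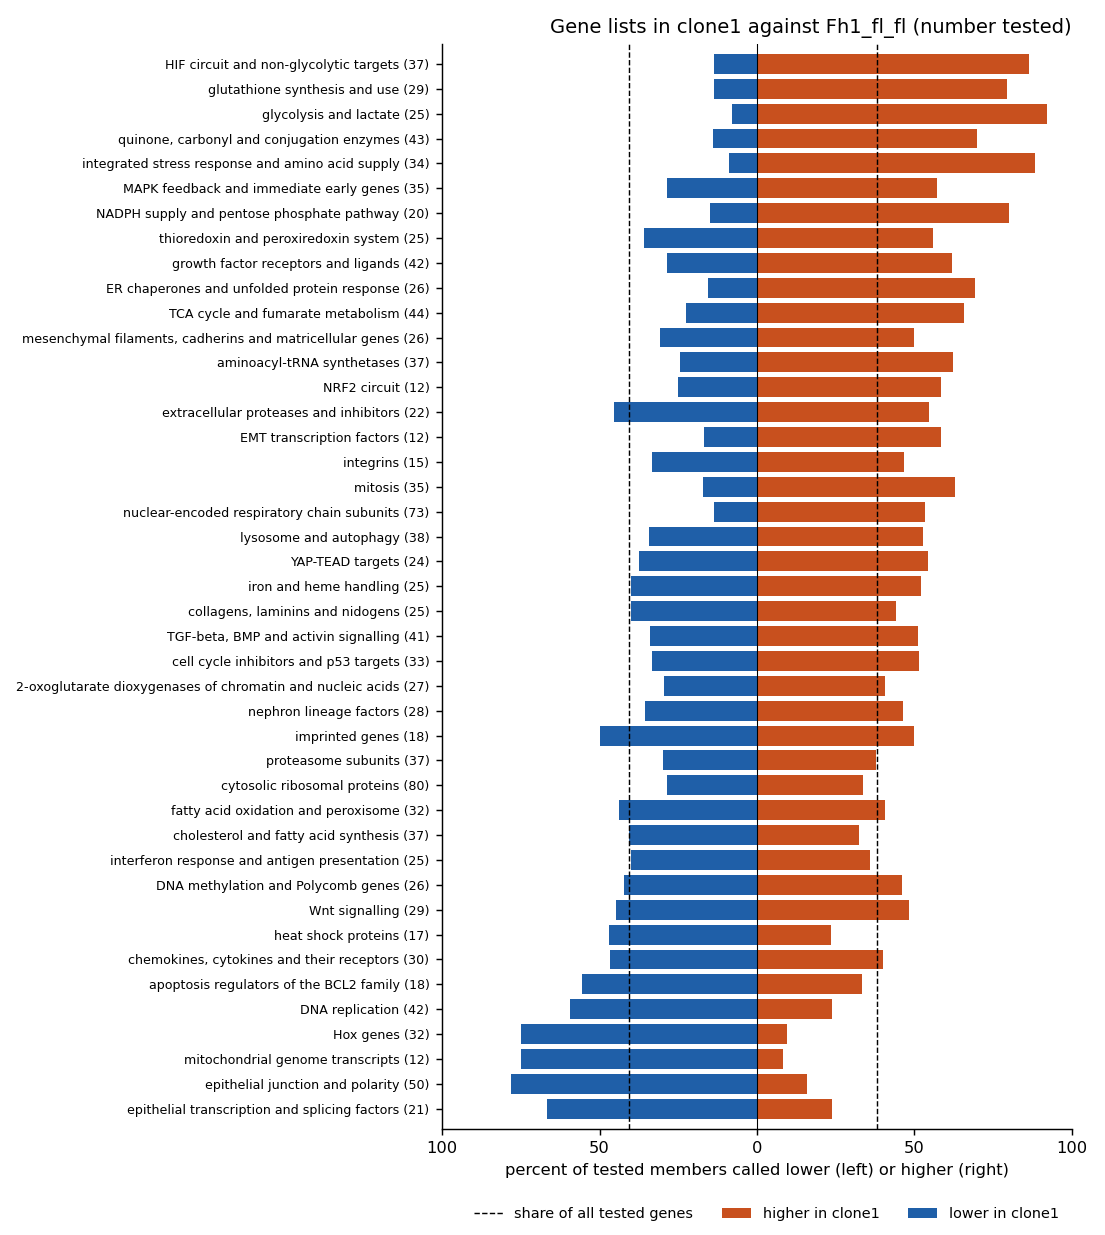
Each pair of bars is 1 gene list with at least 12 tested members, and gives the percent of tested members called higher (right, orange) or lower (left, blue) in clone1 against Fh1_fl_fl at an edgeR adjusted p under 0.05. Dashed lines mark the shares of all tested genes, 38.0% higher and 40.5% lower, and lists are ordered by median log2 fold change. HIF, glutathione, glycolysis and stress response lists stand at the top, epithelial, mitochondrial genome and Hox lists at the bottom.

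Most transcripts of the mitochondrial genome were lower in clone1, but their summed level was not. Of 12 tested protein-coding transcripts 9 were lower (75%), 1 was higher (8.33%) and 2 did not pass the test (median log2 fold change -0.75). Of 73 nuclear-encoded respiratory chain subunits 39 were higher and 10 lower (53.4% and 13.7%, median 0.26). Of all tested genes 38.0% were higher and 40.5% lower. Summed over the mitochondrial genome list, clone1 had 30472 to 39879 CPM and Fh1_fl_fl 25313 to 35241. mt-Co1 alone made the larger part of the clone1 sum and a smaller part of the Fh1_fl_fl sum. The sum therefore does not describe the other members. The member that rose was mt-Co1, a subunit of complex IV, with 5970, 6728, 6922, 7964 and 7603 CPM in Fh1_fl_fl and 22421, 22838, 21462, 20873 and 17857 in clone1 (1.58, SE 0.12, adjusted p = 8.07e-12). It went from 0.754% to 2.05% of all counts and was also high in clone19, at 15565 ± 1868 CPM. mt-Nd3, a subunit of complex I, was set apart downward, with 454, 466, 541, 569 and 497 CPM in Fh1_fl_fl and 161, 137, 140, 111 and 140 in clone1, against 363 ± 88.3 in clone19. The call was lost without clone1 replicate 4 (adjusted p = 0.0604), clone1 replicate 5 (0.0538) or clone19 replicate 2 (0.0728), under DESeq2 (0.0835) and with no filter (0.0899). mt-Nd1 had 2295, 2596, 2642, 3249 and 2961 CPM in Fh1_fl_fl and 1452, 1290, 1326, 1163 and 1032 in clone1. mt-Co2 did not pass the test (0.04, adjusted p = 0.809, and -0.10 under library totals). Mitochondrial genes have nuclear copies too, so these levels carry the same uncertainty.

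In the growth factor list 26 of 42 tested genes were higher and 12 lower in clone1 (61.9% and 28.6%, against 38.0% and 40.5% of all tested genes), with a median of 0.49. Of its members 7 were set apart upward and 2 downward, where 2.64% and 1.34% of all tested genes were. Those described first are 3 ligands of the epidermal growth factor receptor, of which Ereg and Btc were picked after their values were seen. Areg, the ligand amphiregulin, had 0.343, 1.25, 0.486, 0.358 and 0.576 CPM in Fh1_fl_fl and 22, 17.5, 13.9, 18.2 and 23.1 in clone1 (5.09, SE 0.20, adjusted p = 1.81e-19). Betacellulin (Btc) had 4.21, 4.57, 4.62, 5.01 and 4.82 CPM in Fh1_fl_fl and 42.4, 37.4, 41.6, 39.2 and 37.6 in clone1. Epiregulin (Ereg) was low but set apart, at 4.69 ± 0.834 CPM against 0.239 ± 0.242 in Fh1_fl_fl, and had 0 counts in clone19. No library outside clone1 had more than 1.06 CPM of Ereg. Ereg thus entered the test through clone1, and its call partly follows from the filter. The libraries of clone1 and Fh1_fl_fl did not overlap for any of the 3. Ereg, Areg and Btc lie side by side on chromosome 5, at 91074622 to 91093646, 91139599 to 91148432 and 91357261 to 91402994, in a segment (80 to 100 Mb) whose median was 0.18. Fgf7, a ligand for epithelial FGF receptors, had 33.4, 36.9, 34.7, 32.6 and 38.6 CPM in clone1 and 0.49, 0.208, 0.162, 0.358 and 0.432 in Fh1_fl_fl (6.59, SE 0.20, adjusted p = 3.91e-22). The GDNF pathway split: the coreceptor Gfra1 rose from 13.7 ± 1.79 to 199 ± 26.7 CPM and the ligand Gdnf fell from 15.8 ± 0.962 to 2.96 ± 1.43, while the receptor Ret had 0 counts in Fh1_fl_fl and 2 in clone1. Clone19 had 35.4 ± 3.65 CPM of Gfra1 and 34.5 ± 3.38 of Gdnf. Igfbp3, a carrier of insulin-like growth factors, had 2.9 ± 0.332 CPM in Fh1_fl_fl and 0 counts in clone1, at least 46.5-fold lower. It was also low in clone19 (0.205 to 1.05 CPM) and in Rec (0.187 to 0.941 CPM).

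In the TGF-beta, BMP and activin list 21 of 41 tested genes were higher and 14 lower (51.2% and 34.1%, against 38.0% and 40.5% of all tested genes), and the median was 0.16. Of its members 4 were set apart upward and 2 downward, where 2.64% and 1.34% of all tested genes were. The genes described next are single genes of this list, of which Id3 and Smad9 were picked after their values were seen. Id1, a direct target of BMP signalling, had 6.76, 7.47, 6.48, 6.66 and 5.33 CPM in Fh1_fl_fl and 60.2, 42.4, 45.8, 41.9 and 42.9 in clone1 (2.84, SE 0.11, adjusted p = 3.41e-19), with 11.2 ± 1.53 in clone19. Id3 went from 3.41 ± 0.443 to 16.4 ± 3.21 CPM and was at 3.31 ± 0.427 in clone19. The BMP signal transducer Smad9 went from 0.0921 ± 0.127 to 2.65 ± 0.462 CPM, and the coreceptor Tgfbr3 from 12.5 ± 1.67 to 61.4 ± 8.96. Smad9 had at most 0.353 CPM in any library outside clone1. It thus entered the test through clone1, and a call of it as higher partly follows from the filter. Inhbb, which encodes the beta B chain of activin and inhibin, had 11.9, 13.9, 10.5, 9.45 and 11.1 CPM in Fh1_fl_fl and 0, 0, 0.33, 0.153 and 0.173 in clone1 (-6.36, SE 0.28, adjusted p = 3.15e-18), with 5.17 ± 0.667 in clone19. Bmp4 itself rose from 1.8 ± 0.271 to 27.7 ± 1.24 CPM and was at 14.5 ± 1.28 in clone19, not set apart.

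The integrin list as a whole was near the background. Of 15 tested members 7 were higher and 5 lower (46.7% and 33.3%, against 38.0% and 40.5% of all tested genes). Set apart were 3 single members upward and 1 downward, where 2.64% and 1.34% of all tested genes were. Itgb3, the beta chain of the vitronectin receptor, had 6.95, 5.71, 6.8, 7.09 and 9.43 CPM in Fh1_fl_fl, 73.3, 88.8, 70.9, 78.9 and 89.3 in clone1 and 11.8 ± 1.62 in clone19. Itga7, a laminin receptor chain, rose from 0.668 ± 0.196 to 38.6 ± 8.21 CPM and Itgb7 from 0.269 ± 0.242 to 19.7 ± 2.96. Itgb2, the beta chain of leukocyte integrins, fell from 28.5 ± 2.69 to 2.8 ± 0.593 CPM. The log2 fold changes were 3.47 for Itgb3 (SE 0.12, adjusted p = 6.04e-21), 5.78 for Itga7 and -3.33 for Itgb2. The median of the integrin list was 0.29, and -0.01 without clone1 replicate 2. In the protease list 12 of 22 tested genes were higher and 10 lower (54.5% and 45.5%). Its member Mmp13, a collagenase gene, was set apart at 97.4 ± 9.16 CPM against 5.01 ± 0.898 in Fh1_fl_fl and 10.8 ± 2.67 in clone19.

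Of 42 DNA replication genes 25 were lower and 10 higher (59.5% and 23.8%, against 40.5% and 38.0% of all tested genes), with a median log2 fold change of -0.41. Of 35 mitosis genes 22 were higher and 6 lower (median 0.27), but under library totals 14 were higher and 10 lower (median 0.13). Rrm2, a subunit of ribonucleotide reductase, fell from 147 ± 9.42 to 47 ± 4.42 CPM, and Pola1, the catalytic subunit of DNA polymerase alpha, from 94.2 ± 7.66 to 26.7 ± 2.17. The mitotic transcription factor Foxm1 rose from 77.1 ± 4.47 to 154 ± 10 CPM. Against clone19 the medians were -0.34 and -0.12, and 0 genes of either list were set apart. Hox genes, which record position along the body axis, were lower in 24 of 32 and higher in 3 (75% and 9.38%, against 40.5% and 38.0% of all tested genes, median -0.68). The fall was not particular to clone1. Against Fh1_fl_fl the list median was -0.85 in clone19 and -0.74 in Rec, and clone1 against clone19 gave -0.04. Only 1 member was set apart, Hoxc5, from 4.41 ± 0.697 to 0.23 ± 0.0794 CPM. The strand setting of the counting is not given in the sources used here, so Hox genes and their antisense transcripts cannot be told apart. All 4 tested Y-linked genes were lower in clone1, with 0 counts of Ddx3y and Kdm5d and 1 count each of Eif2s3y and Uty over 5 libraries. Clone19 and Rec held 0 to 2 counts of each, and 0 of the 4 were set apart.

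The clones moved to opposite sides of the control in few genes. More than 2-fold higher in clone1 and more than 2-fold lower in clone19 were 31 genes (0.245%), and the reverse held for 13 (0.103%). For scale, clone19 alone was more than 2-fold higher than Fh1_fl_fl in 8.18% of tested genes and lower in 7.24% (15.4% together), and at an adjusted p under 0.05 it differed in 72.8%, 36.7% higher and 36.1% lower. Both comparisons share the Fh1_fl_fl libraries. Arg1, the liver-type arginase, had 3.52, 4.05, 3.56, 3.29 and 2.59 CPM in Fh1_fl_fl, 83.9, 81.5, 79.4, 77.2 and 75.5 in clone1 and 0.39 ± 0.125 in clone19. Clone1 differed from clone19 by 7.70 on the log2 scale (SE 0.18, adjusted p = 9.05e-24), and the libraries of all 3 groups were separate. Antxr1, a collagen-binding anthrax toxin receptor, had 22.7 ± 1.25 CPM in clone1, 1.07 ± 0.281 in Fh1_fl_fl and 0.314 ± 0.241 in clone19. Dnaja4, a cochaperone gene, had 12.4 ± 2.1, 3.02 ± 0.551 and 0.362 ± 0.273 CPM in the same order. In the other direction, Sytl4, a vesicle docking protein gene, had 0 counts in clone1, 1.46 ± 0.296 CPM in Fh1_fl_fl and 15.6 ± 1.77 in clone19. Xanthine dehydrogenase (Xdh) had 0.541 ± 0.23, 4.04 ± 0.692 and 15.9 ± 1.37 CPM, and complement C3 had 0.796 ± 0.542, 6.99 ± 0.844 and 23.3 ± 1.33 CPM, again for clone1, Fh1_fl_fl and clone19. For these 6 genes a difference of over 2-fold between the clones follows from their choice on opposite sides of the control.

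Markers of other kidney and stromal cell types gave mixed sums. Podocyte markers summed to 1063 to 1305 CPM in clone1 and 1207 to 1300 in Fh1_fl_fl, and those of the loop of Henle and distal tubule to 589 to 938 and 557 to 622. Smooth muscle and pericyte sums were 605 to 736 and 634 to 737 CPM, and neural sums 28.8 to 39.2 and 20.5 to 23.8, in the same order. Calls of members did not always follow these sums. Of 4 tested neural markers 1 was higher and 2 lower, with 2 set apart downward. The loop and distal list had 1 of 6 higher and 3 lower, the podocyte list 1 of 7 and 4, and the smooth muscle list 3 of 6 and 3. Of all tested genes 38.0% were higher, 40.5% lower and 1.34% set apart downward. Of 27 proximal tubule markers 5 were tested and 4 were higher (80%, against 38.0% of all tested genes), and 8 had 0 counts in all 10 libraries. Their summed level was 322 to 471 CPM in clone1 and 187 to 234 in Fh1_fl_fl. Aqp1, the water channel of that segment, had 16.4, 15.9, 15, 12.6 and 15.2 CPM in Fh1_fl_fl and 87.3, 77.3, 74.3, 79.5 and 89.5 in clone1, and was set apart (2.44, SE 0.09, adjusted p = 1.51e-20). The brush border peptidase gene Anpep went from 0.0863 ± 0.0906 to 5.41 ± 0.637 CPM. It had at most 0.818 CPM in any clone19 library and 1 count over Rec. Anpep thus entered the test through clone1, and its call as higher partly follows from the filter. Of 16 endothelial markers 5 had enough counts to be tested, and Cdh5 and Vwf among them were below 1 CPM in Fh1_fl_fl, so their calls as higher partly follow from the filter. Endothelial sums were 14.6 to 21.3 CPM in clone1 and 4.44 to 6.07 in Fh1_fl_fl, while Pecam1 had 0.315 ± 0.0758 CPM and was not tested. Flt1, a VEGF receptor on this list, was set apart at 6.16 ± 0.992 CPM and is also in the growth factor list. Collecting duct sums were 820 to 931 CPM in Fh1_fl_fl and 372 to 412 in clone1, of which Krt7, from 761 ± 38 to 290 ± 20.7, was the largest part. Leukocyte marker sums were 40.3 to 51.3 CPM in clone1 and 68.3 to 76.9 in Fh1_fl_fl, and fibroblast marker sums 252 to 299 and 554 to 627. Of 5 tested fibroblast markers 3 were higher and 2 lower, and of 3 tested leukocyte markers 1 was higher and 1 lower. The part of other cells in the results above was not tested.

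Whole chromosomes differed in their typical fold change. The median over 598 tested genes of chromosome 6 was 0.59 on the log2 scale, with 67.1% higher in clone1 against 38.0% of all tested genes, and the medians of the 5 clone1 libraries lay between 0.56 and 0.60. Chromosome 6 was also higher against clone19 (0.32) and Rec (0.53). Chromosome 12 was lower against all 3 groups, at -0.49 against Fh1_fl_fl, -0.43 against clone19 and -0.68 against Rec, with 63.6% of its 428 tested genes lower. On chromosome 12 the first 20 Mb had a median of -0.04 (47 genes), the next 20 Mb -0.25, and the segments from 40 Mb onwards between -0.51 and -0.66. On chromosome 6 the segment medians went from 0.33 in the first 20 Mb (39 genes) to 0.92 between 120 and 140 Mb (105 genes). Chromosome 9 was -0.30 against Fh1_fl_fl and -0.53 against clone19, and chromosome 5 was -0.30 with -0.62 between 120 and 140 Mb. Recomputed under other settings, 273 chromosome medians moved by more than the SD of the clone1 library medians and 299 did not. Under library totals the medians of chromosomes 2, 11, 15, 16 and 17, at most 0.13 as scaled here, changed sign. No setting changed the sign for chromosomes 6 and 12. DNA was not measured here, and the part of gene dosage in these shifts was not tested. Single genes can go against them: of the genes described above, Aqp1 and Antxr1 lie on chromosome 6, but Mmp13, Gclc and Gsta4 rose on chromosome 9.

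**Figure D5:**
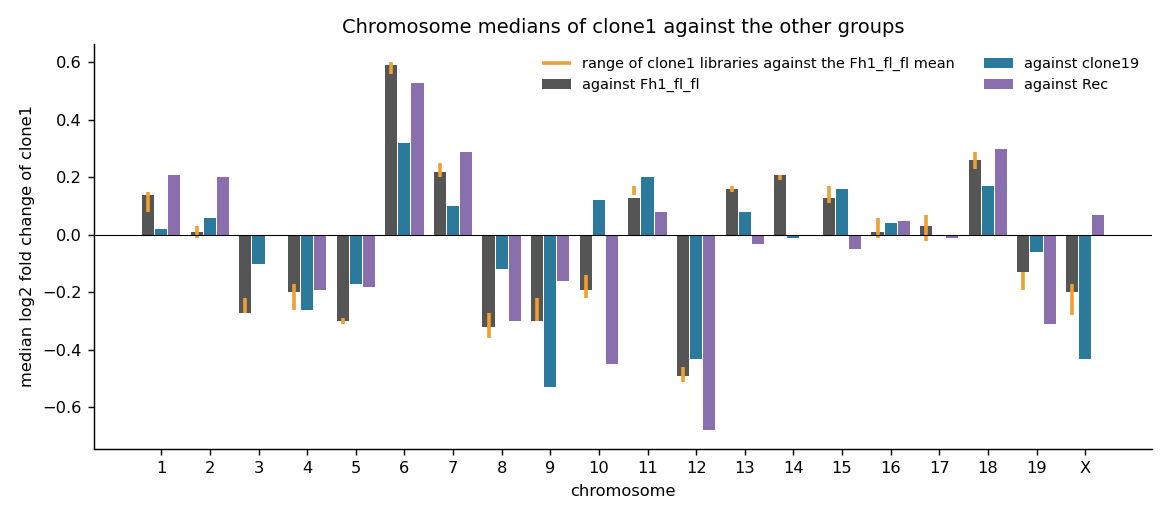
Bars are the median log2 fold change of the tested genes of each chromosome in clone1 against Fh1_fl_fl (grey), clone19 (blue) and Rec (purple), and orange lines span the medians of the 5 clone1 libraries against the Fh1_fl_fl mean. Chromosome 6 stands above and chromosome 12 below 0 in all 3 comparisons.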

How the data were processed

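RNA of 20 libraries, 5 in each of 4 groups, was measured as read counts per gene. The deposited files hold whole-number counts per Ensembl gene, made by the authors with tools that the submitters' processing notes name as TopHat2 2.0.4, HTSeq 0.5.3p9 and DESeq 1.10.1 on GRCm38. Which step each tool served, the gene annotation and the strand setting were not given in the sources used here. Each file ends in 5 summary rows, which were left out of library sizes. Reads aligned to several places made 28.83 to 31.49% of the file totals in the 10 main libraries and reads in no gene 3.35 to 5.32%. Symbols came from GENCODE for 37693 of 39179 genes.

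The counts were fitted with edgeR 4.0.16 (filterByExpr, TMM, robust quasi-likelihood) in R 4.3.3, all 20 libraries in 1 model, with Benjamini-Hochberg adjustment over the 12671 tested genes at 0.05. A change over 2-fold was tested with glmTreat at a log2 bound of 1. Ratios of detected to undetected genes carry a 95% counting interval or a floor of 3 counts over the group, which cover counting error only. The fit was tested on simulated data. Gene totals were 6681589 to 18972176 per main library, and the common biological coefficient of variation was 9.02%.

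Named genes are Fh1, the 12 genes each way set apart by the widest margins, up to 4 leading members of each of 55 lists, the 8 each way switched on or off at the highest level, the 6 each way opposite to clone19, and the 10 largest gains and losses, mostly with at least 10 CPM. The members and lists were chosen with earlier results of these data known. Gclc, Gclm, Abcc1, Ugdh, Cbr1, Cbr3, Nqo1, Gss, Gsr, Bach2, Epcam, Ocln, Dsp, Esrp1, Ereg, Btc, Gfra1, Gdnf, Ret, Igfbp3, Id3, Smad9, Anpep, Flt1, Cdh5, Vwf, Pecam1, Cldn3, Cxcl15, Hoxc5 and mt-Co2 were picked after their values were seen. Alternatives were RLE scaling, library totals, no filter, a filter at a mean of 5 CPM, DESeq2 1.42.0, a replicate block, a fit of the 2 groups alone, other thresholds, and each library left out in turn.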

Additional observations from a re-analysis of the deposited data

Results flagged for a closer look

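In 9 of 197 groups of 5 libraries examined for the genes named here, 1 library lay far from the other 4 by Dixon's criterion, which chance meets in about 1 in 20 groups. Of these 9, 6 were in clone1, and in 5 of the 6 the library was replicate 1. Replicate 1 was highest for Fh1 (123 CPM, others 108 to 112), Krt19 (763, others 591 to 630), Gsta4 (483, others 365 to 397) and Id1 (60.2, others 41.9 to 45.8), and lowest for Foxm1 (137, others 155 to 162). Clone1 replicate 5 was highest for Gfra1 (246, others 179 to 192). In Fh1_fl_fl, replicate 3 was lowest for Pola1 (80.8, others 95.1 to 99.6), and replicate 2 was highest for Areg (1.25, others 0.343 to 0.576) and Kdm5d (16.8, others 12.7 to 13.8).

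7 named genes changed by more than 2-fold against Fh1_fl_fl in opposite directions in the 2 clones. A difference of over 2-fold between the clones follows from that choice. Only the size of the difference of clone1 from clone19 is therefore given. On the log2 scale it was 7.70 for Arg1, 6.19 for Antxr1, 5.02 for Dnaja4 and 3.68 for Twist2, all higher in clone1. It was -10.40 for Sytl4, whose size depends on the prior count because clone1 had 0 counts, -4.85 for C3 and -4.79 for Xdh.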

How the results depend on the processing

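Of 244 recomputed counts of genes, 231 stayed within 1.5 times the reported value. Testing only genes with a mean of at least 5 CPM, which leaves fewer genes, gave 902 higher and 847 lower by over 2-fold against Fh1_fl_fl, 356 and 302 against clone19, and 192 set apart upward. A log2 bound of 2, the 4-fold threshold, gave 533 and 465 against Fh1_fl_fl and 92 and 34 set apart. Asking for at least 2 CPM left 37 genes switched on and 49 off, and asking for 0 counts in the other group left 18 and 32. DESeq2 found 437 set-apart genes, and all 437 were among the 505.

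Leaving out 1 library at a time gave 4737 to 5103 genes higher and 4787 to 5230 lower in clone1 at an adjusted p under 0.05. By over 2-fold it gave 1370 to 1483 and 1270 to 1419 against Fh1_fl_fl, and 602 to 647 and 576 to 624 against clone19. Set apart were 331 to 355 upward and 157 to 174 downward, and 58 to 75 genes were switched on and 88 to 100 off. Of the named genes, mt-Co2 alone changed sign, to -0.10 under library totals.

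The replicate numbers did not pair the samples, since libraries of clone1 and Fh1_fl_fl with the same number had correlated deviations of -0.10 to 0.00. With the replicate block 4797 genes were higher and 5121 lower, 333 were set apart upward and 170 downward, and 497 of the set-apart genes were shared. The median of the fibroblast markers, above 0 over 5 tested genes, was -1.16 under the filter at 5 CPM and -1.14 in a fit of the 2 groups alone. Depth limits detection to about 0.158 to 0.449 CPM per library, the level of 3 counts.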
